A study of Mus musculus with 52 samples.

Results

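Amino acid transporters are membrane proteins that move amino acids into cells, out of cells and out of lysosomes. The 10 described here, Slc7a5, Slc3a2, Slc7a8, Slc7a6, Slc7a2, Slc38a2, Slc38a4, Slc38a9, Slc36a1 and Slc1a5, were chosen by name, and each matched 1 Ensembl gene of the 55487 in the count table. All 10 passed the filter on low counts, as did 16668 genes in all. RNA had been sequenced from gastrocnemius, a calf muscle, of male C57BL/6 mice aged 22 to 24 months, in 52 libraries that formed 13 groups of 4. Ambulatory mice on plain water (AMB_W) served as the baseline. The other groups had hindlimb unloading, in which the hindlimbs bear no weight, with no reloading (HU) or with 7 d (RL7) or 14 d (RL14) of reloading afterwards. Each of these times was studied in mice that drank water (W), metformin (M), leucine (L) or metformin with leucine (ML), all agents being given in the drinking water. No ambulatory group received metformin or leucine, so every comparison of an unloaded group with the baseline used the same 4 AMB_W libraries. The labels give neither the days of unloading nor the doses used. They also do not say in words that each library came from its own mouse, so the p-values measure the spread between these libraries. Libraries are named by group and label number, as in RL7_M 4. Levels are in CPM, counts scaled to the library total and its TMM factor, and a gene is said to have risen, fallen or changed where its adjusted p was under 0.05 in the edgeR test. Values written with ± before an adjusted p are log2 fold changes with their standard error (SE).

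As background, muscle takes up amino acids both for protein synthesis and as signals of supply. Slc3a2 encodes the heavy chain 4F2hc, which brings several light chains to the cell surface. Among these light chains, LAT1 (Slc7a5) and LAT2 (Slc7a8) exchange large neutral amino acids such as leucine, and y+LAT2 (Slc7a6) exchanges cationic for neutral amino acids. The sodium-coupled carriers SNAT2 (Slc38a2) and SNAT4 (Slc38a4) belong to system A and load cells with small neutral amino acids. CAT2 (Slc7a2) carries arginine and lysine, and ASCT2 (Slc1a5) exchanges glutamine and other neutral amino acids. PAT1 (Slc36a1) and SNAT9 (Slc38a9) work at the lysosome, where SNAT9 takes part in the sensing of arginine by mTORC1, the kinase complex that promotes protein synthesis. Slc38a2 is known for its induction when cells lack amino acids.

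Libraries held 15605044 to 32492548 counts. Fast muscle fibre markers were high in every library, with Myh4, a fast myosin heavy chain, at 37660 to 77125 CPM. Several libraries stood apart. RL7_M 4 had the highest level of all 6 adipocyte markers listed (Adipoq, Plin1, Lep, Cidec, Fabp4 and Cfd). RL14_ML 1 had 7026 CPM of the small RNA gene Gm23935 and was the highest of its group for 8 of the 10 transporters. The liver transcript Alb exceeded 16 CPM in 12 libraries. The 5.8S ribosomal RNA gene n-R5-8s1 was lower in the RL7_M, RL7_L and RL7_ML libraries (0.379 to 3.28 CPM) than in those of HU_M and HU_L (10.03 to 12.3 and 14.3 to 32.8 CPM). Where leaving out these libraries ended a call of 1 of the 10 transporters, the loss is stated beside it. In bulk muscle, fewer cells of a type and less RNA per cell cannot be told apart.

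Promoter sequences were taken from RefSeq (GRCm38.p6, 250 bases before to 50 after the transcript start), which matched 7 of the 10 genes. Those of Slc38a2 and Slc7a8 are shown because these 2 genes moved together across the study, and that of Slc36a1 because it alone held a searched motif, given in capitals. Each is written 5′ to 3′ on the strand of the gene.
Slc38a2 (chr15:96699679-96699978, minus strand): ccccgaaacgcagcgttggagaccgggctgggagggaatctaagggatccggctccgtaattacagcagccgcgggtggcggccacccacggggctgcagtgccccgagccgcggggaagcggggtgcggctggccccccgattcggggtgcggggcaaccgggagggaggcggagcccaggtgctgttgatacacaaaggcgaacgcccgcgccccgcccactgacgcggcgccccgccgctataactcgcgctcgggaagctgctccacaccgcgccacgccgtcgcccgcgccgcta
Slc7a8 (chr14:54781837-54782136, minus strand): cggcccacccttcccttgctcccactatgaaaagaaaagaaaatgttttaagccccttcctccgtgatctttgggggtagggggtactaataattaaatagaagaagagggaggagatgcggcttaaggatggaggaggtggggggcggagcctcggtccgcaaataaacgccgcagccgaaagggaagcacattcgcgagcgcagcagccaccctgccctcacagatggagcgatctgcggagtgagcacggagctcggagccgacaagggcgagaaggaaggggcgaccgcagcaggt
Slc36a1 (chr11:55204090-55204389, plus strand): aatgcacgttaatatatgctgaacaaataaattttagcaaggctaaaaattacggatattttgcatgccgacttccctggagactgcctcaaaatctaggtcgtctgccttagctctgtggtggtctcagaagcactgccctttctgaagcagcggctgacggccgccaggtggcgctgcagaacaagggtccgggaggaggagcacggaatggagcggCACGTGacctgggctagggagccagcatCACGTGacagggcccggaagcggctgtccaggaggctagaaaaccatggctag
The capitals mark CACGTG, the E-box, at 31 and 3 bases before the start of Slc36a1. The search covered both strands for CACGTG, which reads the same on both, for TGATGNAA (the core of the amino acid response element), for GTAAACA (the FoxO motif) and for GNACA and TGTNC spaced by NNN (the glucocorticoid response element). The motifs were present in 7.15%, 3.97%, 3.65% and 0.475% of 32851 RefSeq promoters of this length, in that order. In the 10 promoters of the 7 matched genes the E-box of Slc36a1 was the only match, which says nothing about sites outside this window or about the factors themselves.

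Scaled to exon length, the 2 system A carriers were the most abundant of the 10. Slc38a4 averaged 20.2 ± 4.19 CPM per kb of exon (SD, n = 52 libraries) and Slc38a2 averaged 15.3 ± 5.29. Slc7a2 came next with 8.21 and Slc7a8 with 4.93 CPM per kb. The heavy chain Slc3a2 lay at 3.83, Slc1a5 at 2.02, Slc7a6 at 1.84, Slc36a1 at 1.08 and Slc38a9 at 0.864 CPM per kb. Slc7a5 was the least abundant, at 0.444 CPM per kb and 8 to 84 counts per library, so LAT1 had the coarsest measurements of the set. With coding length in place of exon length Slc38a2 (89.5 CPM per kb) stood above Slc38a4 (52.3 CPM per kb), so the order of these 2 depends on the length used. Exons of Slc7a2 and Slc38a9 overlap a gene on the opposite strand (635 of 9135 and 182 of 16704 bases, in that order), and as the sources used here do not give the strand setting of the counting, both levels carry that uncertainty.

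**Figure D1:**
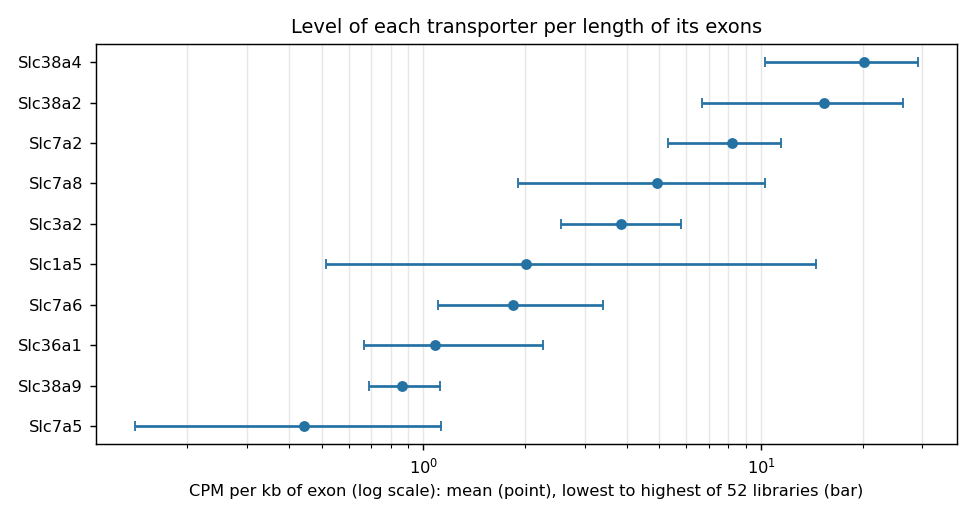
Level of each transporter gene in CPM per kb of exon, on a log axis; points are means over 52 libraries and bars run from the lowest to the highest library. Slc38a4 and Slc38a2 lie highest and Slc7a5 lowest, and Slc1a5 has the widest spread, from 0.513 to 14.5 CPM per kb.

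The transporters differed in how much of their variation followed the groups. Differences between the 13 group means held 76.9% of the variance of log2 CPM for Slc38a2 and 73.2% for Slc7a8, but 27.1% for Slc7a2 and 29.5% for Slc38a9. For the other 6 genes the share lay between 32.7% for Slc3a2 and 47.5% for Slc7a6. When the 13 groups were ordered by mean level, each of the 12 neighbouring pairs overlapped for all 10 genes, so the full order is not resolved by these libraries. Group means ran from 93.3 CPM in RL7_W to 203 CPM in HU_M for Slc38a2 and from 16.4 CPM in RL7_W to 45.4 CPM in HU_L for Slc7a8.

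Slc38a2 (SNAT2, chr15:96687392-96699730, minus strand, ENSMUSG00000022462) was higher in unloaded muscle than in ambulatory muscle and lower again after 7 d of reloading. The 4 AMB_W libraries held 135, 121, 114 and 118 CPM. In the unloaded groups the libraries held 179, 209, 218 and 183 CPM on water, 225, 205, 201 and 180.1 CPM on metformin, 150.1, 217, 210.0 and 232 CPM on leucine and 178, 191, 153 and 168 CPM on both. All 16 unloaded libraries lay above all 4 ambulatory ones, a lack of overlap seen in 2.43% of all genes tested. After 7 d of reloading the libraries held 93.9, 92, 98.1 and 89.1 CPM on water, 108, 107, 111 and 71.8 CPM on metformin, 129, 94.1, 102 and 77.2 CPM on leucine and 99.7, 119, 116 and 92.8 CPM on both. All 16 of these lay below all 16 unloaded libraries, and 1.37% of all genes had no overlap there. After 14 d they held 169.6, 143, 112 and 175 CPM on water, 111, 123, 98.4 and 65.6 CPM on metformin, 114, 131, 132 and 92.8 CPM on leucine and 152, 59.1, 88.5 and 83.4 CPM on both. Here the water libraries were mostly the high ones, with 3 of 4 above every ambulatory library, and RL14_ML 1 was far above the other 3 of its group.

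Slc7a8 (LAT2, chr14:54722209-54781946, minus strand, ENSMUSG00000022180) followed the same course. It held 17.2, 16.5, 20.2 and 16.5 CPM in AMB_W. In the unloaded groups it held 49.7, 39.98, 28.4 and 31.3 CPM on water, 46.1, 32.1, 46.9 and 28 CPM on metformin, 36, 51.3, 48.9 and 45.4 CPM on leucine and 36.9, 45.3, 21.1 and 26.8 CPM on both. Every unloaded library lay above every ambulatory one, and the spread within an unloaded group was wide. After 7 d of reloading the libraries held 14, 17.4, 17.6 and 16.7 CPM on water, 19.2, 19.9, 22.1 and 18.7 CPM on metformin, 19.4, 16.7, 17.1 and 25.1 CPM on leucine and 13.3, 18.2, 18.2 and 20.1 CPM on both. Of the 16 unloaded libraries 15 lay above all of these, the exception being HU_ML 5 at 21.1 CPM. After 14 d the values were 18.8, 23.3, 18.2 and 20.7 CPM on water, 15.6, 20.2, 18.7 and 13.2 CPM on metformin, 16.2, 25.4, 24.9 and 15.1 CPM on leucine and 33.7, 9.56, 16.3 and 14.3 CPM on both. These lay on both sides of the ambulatory range, from 9.56 CPM in RL14_ML 3 to 33.7 CPM in RL14_ML 1, the latter within the range of unloaded muscle.

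**Figure D2:**
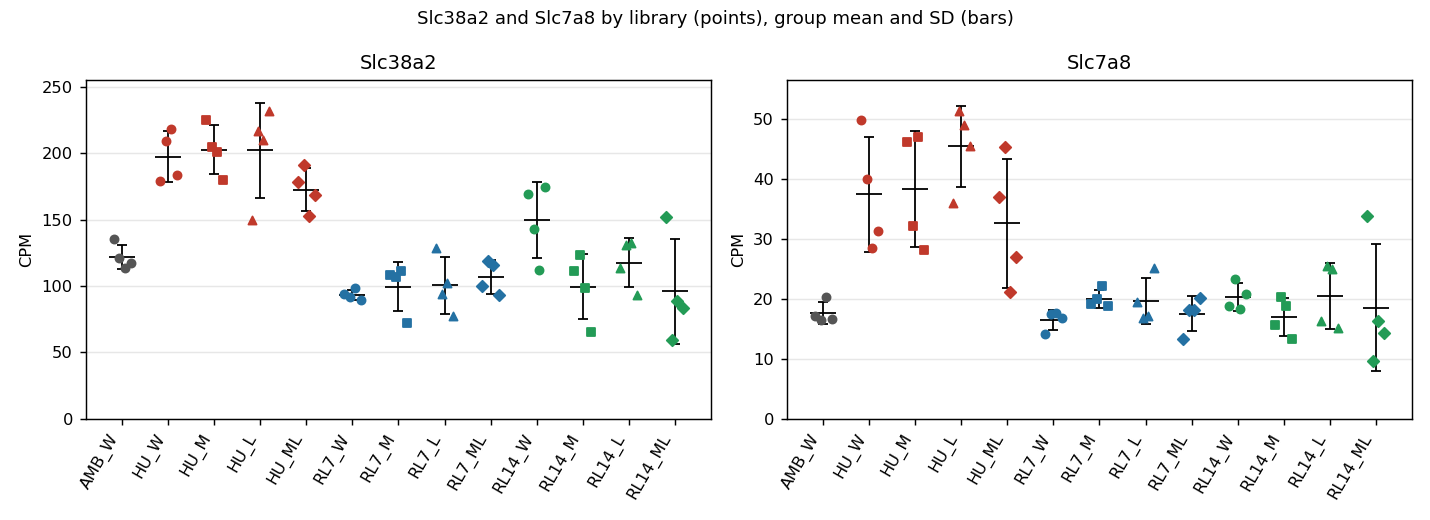
Slc38a2 and Slc7a8 in CPM in each of 52 libraries (points) by group, with group mean and SD. The 16 unloaded libraries lie above the 4 ambulatory libraries for both genes, and the reloaded groups lie lower, with RL14_ML 1 the high point of its group.

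The comparison of unloading with ambulation on water asks what disuse does without any agent. Of the 10 transporters 2 rose and 0 fell, where 2.78% of all genes tested changed and 1.95% rose. Slc7a8 rose 2.12-fold (37.3 ± 9.61 against 17.6 ± 1.78 CPM, SD, n = 4 each; log2 fold change 1.09 ± 0.24 (SE), adjusted p = 0.0051). Slc38a2 rose 1.62-fold (197 ± 19.2 against 122 ± 9.32 CPM; log2 fold change 0.70 ± 0.19 (SE), adjusted p = 0.0261). The Slc38a2 call was lost in 5 of 8 fits that left out 1 library (AMB_W 3, 4 or 5, or HU_W 2 or 3), with adjusted p up to 0.0800, while the Slc7a8 call held in all 8. Both calls were lost without the 12 libraries with Alb, which removes HU_W 1 and 2, at 0.76 (adjusted p = 0.304) for Slc7a8 and 0.72 (adjusted p = 0.159) for Slc38a2. The median log2 fold change of the 10 genes was 0.17, beside -0.01 for all genes tested.

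The same 2 genes were higher in the unloaded groups on the other drinks, again set against the shared AMB_W libraries. In HU_M 2 of 10 rose (2.47% of all genes rose), with Slc7a8 at 1.12 ± 0.24 (adjusted p = 0.00312) and Slc38a2 at 0.73 ± 0.19 (adjusted p = 0.0151) on the log2 scale. No HU_M library held more than 0.254 CPM of Alb, and both calls there held in every alternative fit. In HU_L 2 of 10 rose (2.54% of all genes rose), with Slc7a8 at 1.37 ± 0.24 (adjusted p = 0.000231) and Slc38a2 at 0.73 ± 0.19 (adjusted p = 0.0138); the latter was lost without HU_L 5, the library with Alb (adjusted p = 0.0638). In HU_ML 1 of 10 rose (1.25% of all genes rose), Slc7a8 at 0.89 ± 0.24 (adjusted p = 0.037), a call lost in 6 of 8 fits without 1 library (AMB_W 2, 3, 4 or 5, or HU_ML 1 or 4; adjusted p up to 0.256). It was also lost without the Alb libraries (adjusted p = 0.287), with the 5.8S covariate (adjusted p = 0.176), without a filter on low counts (adjusted p = 0.114) and with only the groups compared (adjusted p = 0.0565). Slc38a2 in HU_ML gave 0.50 ± 0.19 (adjusted p = 0.153) and did not pass, although its 4 libraries did not overlap the ambulatory ones (11.5% of all genes did not). For the mean of the 4 unloaded groups against AMB_W (16 libraries against 4), 2 of 10 rose and 3.31% of all genes rose. Slc7a8 was 2.17-fold higher (log2 fold change 1.12 ± 0.20 (SE), adjusted p = 0.000276) and Slc38a2 1.59-fold higher (log2 fold change 0.67 ± 0.15 (SE), adjusted p = 0.00387). Both averaged calls held in all 20 fits without 1 library and in the 9 other settings run. The 5.8S level in HU_W (7.99 to 13.8 CPM) and HU_M (10.03 to 12.3 CPM) overlapped that in AMB_W (7.64 to 14.5 CPM).

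Return of load was accompanied by lower Slc38a2 and Slc7a8 in all 4 drink groups. On water 2 of 10 transporters fell and 0 rose after 7 d, where 4.88% of all genes changed and 2.9% fell. Slc38a2 was 2.12-fold lower (log2 fold change -1.08 ± 0.19 (SE), adjusted p = 0.000171) and Slc7a8 2.27-fold lower (log2 fold change -1.18 ± 0.24 (SE), adjusted p = 0.00141). The Slc7a8 call was lost without the Alb libraries, at -0.87 (adjusted p = 0.132). On metformin Slc38a2 gave -1.03 ± 0.19 (adjusted p = 0.000106) and Slc7a8 -0.94 ± 0.24 (adjusted p = 0.00318). On leucine the values were -1.01 ± 0.19 (adjusted p = 0.000132) for Slc38a2 and -1.21 ± 0.24 (adjusted p = 0.000308) for Slc7a8. On both agents they were -0.69 ± 0.19 (adjusted p = 0.0185) and -0.90 ± 0.24 (adjusted p = 0.0175), and each of these was lost in 2 of 8 fits without 1 library (HU_ML 4 and RL7_ML 6 for Slc38a2, HU_ML 4 and RL7_ML 1 for Slc7a8). Without the Alb libraries both calls on the combination were lost, at -0.65 (adjusted p = 0.205) and -0.76 (adjusted p = 0.253), as was that of Slc38a2 on leucine, at -0.75 (adjusted p = 0.0761). The Slc7a8 call on the combination was also lost without a filter on low counts (adjusted p = 0.051). Of all genes 14.2% fell on metformin, 13.9% on leucine and 3.22% on both. Over all drinks (16 libraries against 16) Slc38a2 was 1.93-fold lower (log2 fold change -0.95 ± 0.09 (SE), adjusted p = 2.69e-11) and Slc7a8 2.08-fold lower (log2 fold change -1.06 ± 0.12 (SE), adjusted p = 1.5e-09). With the 5.8S level as a covariate both averaged calls remained, but those of the single drinks were lost for metformin (-1.07 (adjusted p = 0.138) for Slc38a2 and -1.28 (adjusted p = 0.179) for Slc7a8) and leucine (-1.06 (adjusted p = 0.314) and -1.64 (adjusted p = 0.146)). On both agents the Slc38a2 call was lost as well (-0.71 (adjusted p = 0.0709)).

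The 14 d groups on metformin, leucine and both had 5.8S levels of 11.6 to 23, 9.15 to 26.9 and 16.6 to 33 CPM. On metformin 1 of 4 libraries lay within the range of HU_M, on leucine the ranges of HU_L and RL14_L overlapped, and on both every RL14_ML library was above HU_ML (2.07 to 8.82 CPM), which the RL7_ML libraries overlapped. Comparisons of these 3 groups with unloading on the same drink were added after the data had been seen. In each of them both genes fell, and 2.8%, 2.61% and 2.44% of all genes fell on metformin, leucine and both. On metformin Slc38a2 gave -1.03 ± 0.19 (adjusted p = 0.000368) and Slc7a8 -1.18 ± 0.24 (adjusted p = 0.00165). On leucine the values were -0.78 ± 0.19 (adjusted p = 0.00656) and -1.15 ± 0.24 (adjusted p = 0.00163), and both calls were lost without the Alb libraries, at -0.65 (adjusted p = 0.227) and -1.12 (adjusted p = 0.0626). On both they were -0.85 ± 0.19 (adjusted p = 0.00371) and -0.82 ± 0.24 (adjusted p = 0.0389), where the Slc7a8 libraries overlapped through RL14_ML 1 and the call was lost in 5 of 8 fits without 1 library (HU_ML 1 or 4, or RL14_ML 3, 4 or 6; adjusted p up to 0.219). Both calls on the combination were lost without the Alb libraries (adjusted p = 0.0729 for Slc38a2 and 0.321 for Slc7a8), with the 5.8S covariate (adjusted p = 0.0609 and 0.297) and with only the groups compared (adjusted p = 0.351 and 0.594), and that of Slc7a8 also without a filter on low counts (adjusted p = 0.111). Averaged over the 3 drinks, Slc38a2 gave -0.89 ± 0.11 (adjusted p = 2.17e-08) and Slc7a8 -1.05 ± 0.14 (adjusted p = 1.88e-07), where 3 of 10 transporters and 10.5% of all genes fell.

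On water the 14 d picture was less complete. Of the 10 genes 1 fell from HU_W to RL14_W, where 4.22% of all genes fell. This was Slc7a8 (log2 fold change -0.88 ± 0.24 (SE), adjusted p = 0.0165), a call lost without HU_W 1, HU_W 2 or RL14_W 4 (adjusted p up to 0.0580). It was also lost without the Alb libraries, at -0.59 (adjusted p = 0.262), and with the 5.8S covariate, at -1.22 (adjusted p = 0.386). Slc38a2 gave -0.40 ± 0.19 (adjusted p = 0.156) and did not pass. From RL7_W to RL14_W no transporter passed in edgeR (2 had an unadjusted p under 0.05; 0.036% of all genes changed) or DESeq2. The Slc38a2 libraries did not overlap between these groups, as in 9.97% of all genes (log2 fold change 0.68 ± 0.19 (SE), adjusted p = 0.223), and voom gave 0.56 (adjusted p = 0.0111). Against AMB_W 0 of 10 transporters passed in edgeR in RL7_W (1 at unadjusted p under 0.05, with 0% of all genes changed). In RL14_W 0 of 10 passed as well (1 at unadjusted p under 0.05, with 0.174% of all genes changed). Voom called 0 and 1 of the 10 there, and 156 and 2959 of all genes. DESeq2 called 0 of the 10 in both.

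Slc38a4 (SNAT4, chr15:96994820-97055956, minus strand, ENSMUSG00000022464), the other system A carrier, did not share this course. It held 118, 74.5, 91.2 and 102 CPM in AMB_W and 61.3, 69.1, 76 and 69.3 CPM in HU_W, where the highest unloaded library was only just above the lowest ambulatory one (log2 fold change -0.48 ± 0.19 (SE), adjusted p = 0.22). Unloaded mice given an agent had higher levels than HU_W in several libraries, at 112, 87.7, 93.4 and 92.2 CPM on metformin and 103, 97.8, 99.7 and 105 CPM on both. Neither group overlapped HU_W, yet the differences did not pass (0.48 ± 0.19 (adjusted p = 0.999) on metformin and 0.56 ± 0.19 (adjusted p = 0.458) on both). The share of all genes without overlap was 2.87% and 4.72% in these comparisons. With leucine alone the libraries overlapped HU_W, at 66.5, 90.2, 68.4 and 98.9 CPM. Over the 4 drinks the change with unloading was -0.16 on the log2 scale (95% interval -0.47 to 0.14) and that from unloading to 7 d of reloading -0.02 (-0.22 to 0.18).

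The heavy chain Slc3a2 (chr19:8706882-8723369, minus strand, ENSMUSG00000010095) and its light chain Slc7a5 (LAT1, chr8:121881150-121907694, minus strand, ENSMUSG00000040010) were higher in most unloaded libraries than in ambulatory ones without passing the test. Slc3a2 held 11, 11.5, 10.7 and 12.1 CPM in AMB_W and 13.9, 15.9, 14.9 and 18.1 CPM in HU_W. On metformin, leucine and both the unloaded libraries held 15, 14.3, 15.7 and 17.9 CPM, 12.8, 14, 18.4 and 12.2 CPM, and 15.1, 18.4, 15 and 12.1 CPM. Of these 16 libraries 15 were above all ambulatory ones. The averaged comparison gave 0.43 ± 0.15 (adjusted p = 0.0716), just short of the threshold. It passed in DESeq2 at 0.43 (adjusted p = 0.0482), in voom at 0.44 (adjusted p = 0.00164) and without RL7_M 4 and RL14_ML 1 at 0.43 (adjusted p = 0.0088). The estimate hardly moved between these fits, which called 1210, 2596 and 1641 of all genes, against 1014 in the main fit. The averaged Slc3a2 change did not pass with RLE size factors, without a filter on low counts or with the replicate block. Nor did it pass without the Alb libraries or in any of the 20 fits without 1 library.

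Slc7a5 held 0.988, 1.20, 1.12 and 0.634 CPM in AMB_W, and 1.05, 2.22, 1.87 and 1.65 CPM in HU_W. The HU_M libraries held 2.37, 1.28, 3.56 and 1.95 CPM and did not overlap the ambulatory ones, like 14.2% of all genes. HU_L held 1.32, 1.15, 2.05 and 2.66 CPM and HU_ML 1.13, 2.15, 2.36 and 1.77 CPM. Of the 16 unloaded libraries 13 were above all ambulatory ones. The averaged change was 0.94 ± 0.32 (adjusted p = 0.0734), with a 95% interval of 0.28 to 1.59, and in HU_M alone it was 1.21 ± 0.38 (adjusted p = 0.0661). As for Slc3a2, the averaged change passed in DESeq2 at 0.95 (adjusted p = 0.0481), in voom at 0.84 (adjusted p = 0.0145) and without RL7_M 4 and RL14_ML 1 at 0.94 (adjusted p = 0.0181). The averaged Slc7a5 change likewise did not pass in the settings and fits named above as not passing for Slc3a2. Red cell precursors also express both genes. The 5 red cell markers used (Hbb-bs, Hbb-bt, Hba-a1, Hba-a2 and Alas2) summed to 2.704 to 5.98 CPM in AMB_W, 26 to 57.4 in HU_W, 16.3 to 169 in HU_M, 11.9 to 17.7 in HU_L and 6.21 to 14.7 in HU_ML. HU_M 3 had the highest sum of all libraries and the highest Slc7a5 of the unloaded ones. In the other 3 HU_M libraries, too, both Slc7a5 and the marker sum were above all of AMB_W. Elsewhere the levels did not run together. HU_W 1 had the highest sum of HU_W, 57.4 CPM, with the lowest Slc7a5 of that group, 1.05 CPM. In RL14_W the sum was 2.59 to 4.34 CPM with 1.57 to 1.74 CPM of Slc7a5. In RL14_M it was 9.36 to 63.4 CPM with 0.860 to 1.17 CPM of Slc7a5. Hba-a2 was at 0 in 9 of the 52 libraries, Hbb-bt in 5 and Hba-a1 in 4. The part of red cell transcripts in the Slc7a5 and Slc3a2 levels was not tested.

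The LAT1 pair was also followed through reloading. After 7 d Slc7a5 held 1.52, 1.89, 1.01 and 1.18 CPM on water, 1.20, 1.62, 1.79 and 1.90 CPM on metformin, 1.603, 2.56, 1.89 and 2.63 CPM on leucine and 1.29, 1.89, 2.27 and 1.49 CPM on both. These overlapped the unloaded libraries throughout (-0.15 ± 0.18 (adjusted p = 0.517) over all drinks). Slc3a2 gave -0.20 ± 0.09 (adjusted p = 0.0544) over all drinks at 7 d, which passed with size factors of the RLE kind (-0.22 (adjusted p = 0.0354)), in DESeq2 and in voom. At 14 d Slc7a5 held 1.74, 1.57, 1.71 and 1.74 CPM on water and 1.10, 1.17, 0.898 and 0.860 CPM on metformin, 2 groups that did not overlap (-0.74 ± 0.38 (adjusted p = 0.237); 17.8% of all genes did not overlap there). It held 1.48, 2.42, 0.517 and 1.25 CPM on leucine and 4.16, 0.753, 1.02 and 0.964 CPM on both, where RL14_ML 1 was far above the other 3. In the added comparison of 14 d with unloading over metformin, leucine and both, Slc3a2 fell (log2 fold change -0.28 ± 0.10 (SE), adjusted p = 0.0429), a call lost in 13 of 24 fits without 1 library (adjusted p up to 0.104). It was also lost without a filter on low counts (adjusted p = 0.0737), with the replicate block (adjusted p = 0.0578), without the Alb libraries (adjusted p = 0.123) and with the 5.8S covariate (adjusted p = 0.204). Slc7a5 gave -0.53 ± 0.22 (adjusted p = 0.0705) there and -0.83 (adjusted p = 0.000878) without RL7_M 4 and RL14_ML 1.

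The cationic carrier Slc7a2 (CAT2, chr8:40862396-40922308, plus strand, ENSMUSG00000031596) ranged from 48.5 to 104 CPM over the libraries. It spread most widely within RL14_M (48.5 to 103 CPM) and HU_L (54.6 to 104 CPM). Its libraries held 65.8, 79, 66.4 and 79.9 CPM in AMB_W and 74.4, 57.2, 69.2 and 78.5 CPM in HU_W, and no comparison of times passed. The averaged change with unloading was 0.06 on the log2 scale (95% interval -0.21 to 0.33), and with 7 d of reloading it was -0.09 (-0.26 to 0.08). The RL14_W libraries stood low and close together at 63.4, 60.9, 64.9 and 63.8 CPM. The RL14_L libraries (69.2, 78.4, 91.9 and 87.2 CPM) and RL14_ML libraries (96.1, 96, 84.8 and 81.5 CPM) were all higher than these, without passing (0.37 ± 0.17 (adjusted p = 0.249) on leucine and 0.50 ± 0.17 (adjusted p = 0.175) on both). The share of all genes without overlap was 10.1% and 3.28% in these comparisons. Over the 3 times the leucine groups averaged 79.4 ± 14.4 CPM against 67.3 ± 8.10 on water (SD, n = 12 each; 0.24 ± 0.10 (adjusted p = 0.972) on the log2 scale).

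Slc7a6 (y+LAT2, chr8:106168857-106198706, plus strand, ENSMUSG00000031904) was the only transporter that changed between a drink and water at the same time, at 14 d on metformin. The RL14_W libraries held 9.11, 12, 11.3 and 10.7 CPM and the RL14_M libraries 6.96, 5.37, 8.02 and 6.31 CPM, without overlap, as in 17.8% of all genes. Slc7a6 was 1.62-fold lower on metformin (log2 fold change -0.70 ± 0.19 (SE), adjusted p = 0.0271; 1 of 10 transporters fell, where 3.58% of all genes fell). The call was lost in 5 of 8 fits without 1 library (RL14_W 3 or 4, or RL14_M 1, 2 or 6), with adjusted p up to 0.125. It was also lost without a filter on low counts (adjusted p = 0.0533) and without the Alb libraries, at -0.68 (adjusted p = 0.0547). The 5.8S level was 0.294 to 0.998 CPM in RL14_W and 11.6 to 23 CPM in RL14_M, and with it as a covariate the change was -0.12 (adjusted p = 1). The RL14_L libraries (7.98, 7.41, 5.63 and 7.93 CPM) also lay below all of RL14_W (-0.57 ± 0.19 (adjusted p = 0.13)), and 10.1% of all genes had no overlap there. RL14_ML held 15.6, 6.97, 8.63 and 6.43 CPM. RL14_W had the highest mean of the 13 groups. Slc7a6 held 8.11, 7.46, 6.61 and 7.27 CPM in AMB_W, 8.99, 9.01, 8.21 and 8.53 CPM in HU_W and 7.77, 7.45, 5.05 and 5.46 CPM in RL7_W. RL14_W did not overlap AMB_W (0.55 ± 0.19 (adjusted p = 0.136)) or RL7_W (0.75 ± 0.19 (adjusted p = 0.19)), as in 17.6% and 9.97% of all genes. Voom gave 0.59 (adjusted p = 0.000921) and 0.81 (adjusted p = 0.000274), where it called 2959 and 1324 of 16668 genes. The 5.8S level was 7.64 to 14.5 CPM in AMB_W and 2.91 to 7.39 CPM in RL7_W. With it as a covariate in edgeR, 0 genes were called in each of these comparisons.

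**Figure D3:**
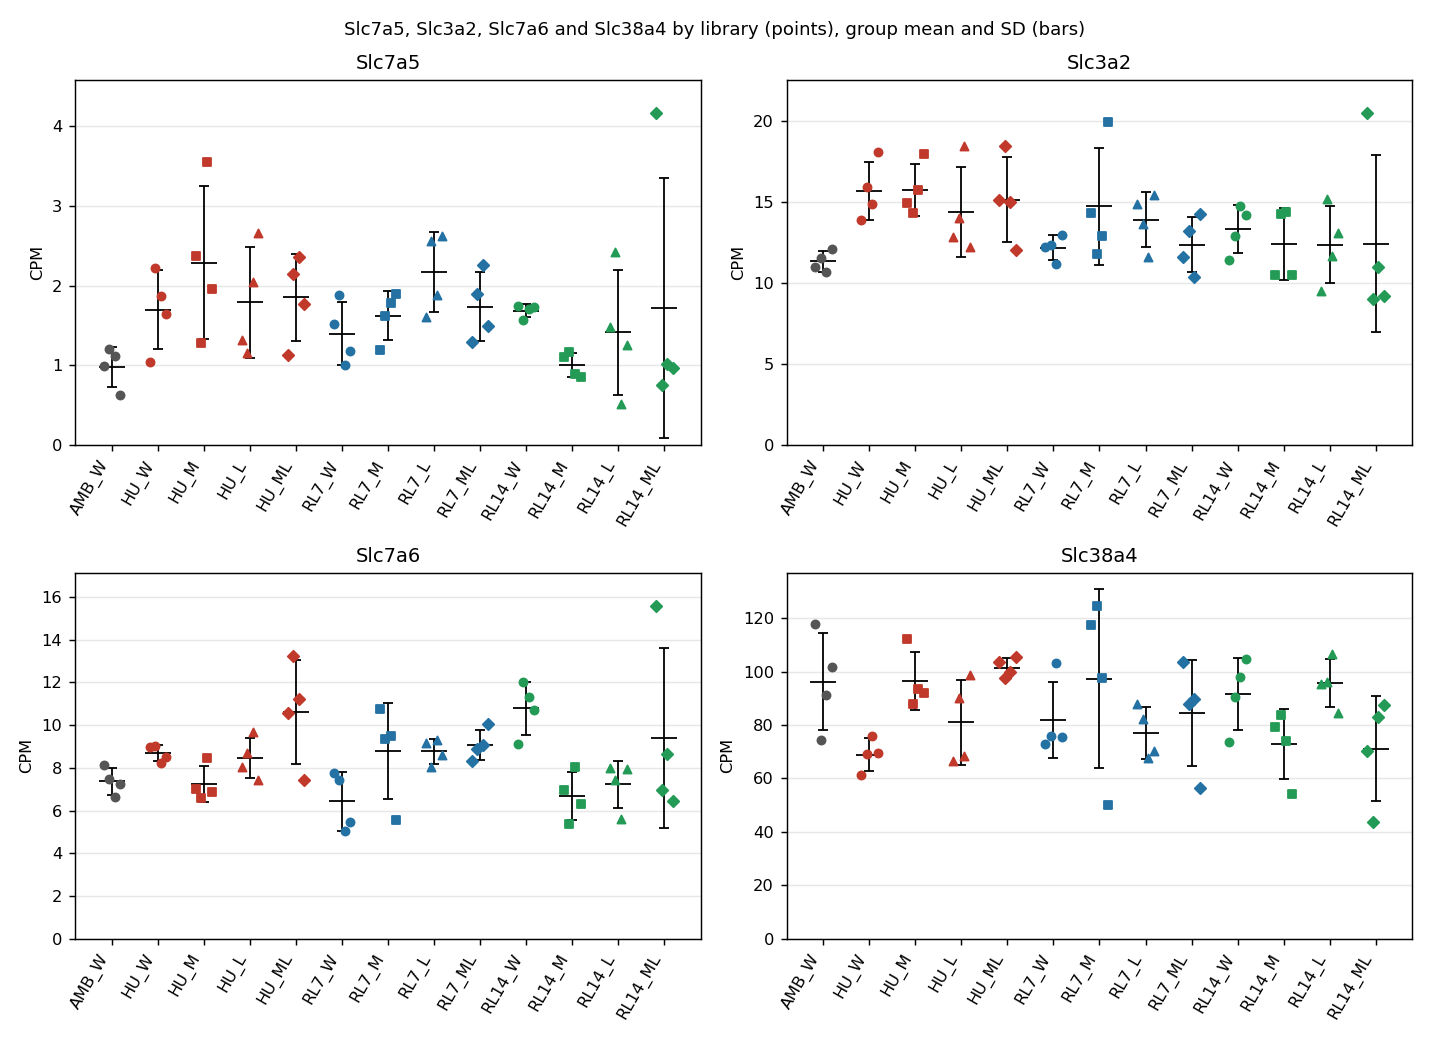
Slc7a5, Slc3a2, Slc7a6 and Slc38a4 in CPM in each of 52 libraries (points) by group, with group mean and SD. The groups overlap more than for Slc38a2 and Slc7a8; RL14_ML 1 is the high point of its group for Slc7a5, Slc3a2 and Slc7a6, and the RL14_W libraries of Slc7a6 (9.11 to 12 CPM) lie above those of RL14_M and RL14_L.

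Slc1a5 (ASCT2, chr7:16781340-16798274, plus strand, ENSMUSG00000001918) rose from unloading to 7 d of reloading on metformin, on leucine and over all drinks. On water and on both agents the change did not pass, and RL7_M 4 carried much of the metformin rise. In the main fit no drink differed from water at 7 d, and the drink by time test gave an adjusted p of 0.242. The unloaded libraries held 6.89, 4.67, 6.45 and 5.12 CPM on water, 4.85, 5.62, 6.65 and 4.53 CPM on metformin, 5.92, 3.88, 6.65 and 2.14 CPM on leucine and 4.05, 8.79, 7.32 and 6.88 CPM on both. After 7 d they held 7.51, 6.13, 5.53 and 6.91 CPM on water, 8.10, 7.89, 8.88 and 60.6 CPM on metformin, 8.32, 15.8, 7.63 and 21.2 CPM on leucine and 7.43, 13.8, 6.94 and 12.6 CPM on both. Of these libraries only RL7_M 4, RL7_L 2, RL7_L 5, RL7_ML 3 and RL7_ML 6 were above 10 CPM, and the RL7_W libraries overlapped HU_W. Slc1a5 rose on metformin (log2 fold change 1.99 ± 0.52 (SE), adjusted p = 0.00443), but without RL7_M 4 the change was 0.58 with an adjusted p of 0.363. The metformin call was also lost in voom, at 0.81 (adjusted p = 0.0805), with the 5.8S covariate, at 0.94 (adjusted p = 0.736), and with only the groups compared (adjusted p = 0.0953). On leucine it rose by 1.49 ± 0.53 (adjusted p = 0.031), a call lost without HU_L 2, HU_L 5, RL7_L 2 or RL7_L 5 (adjusted p up to 0.135). The leucine value was 0.51 (adjusted p = 0.662) without the Alb libraries and 0.17 (adjusted p = 0.994) with the 5.8S covariate, and the call was lost without a filter on low counts (adjusted p = 0.0691). On water it gave 0.17 ± 0.53 (adjusted p = 0.889) and on both agents 0.58 ± 0.51 (adjusted p = 0.518). Over all drinks it rose 2.08-fold (log2 fold change 1.06 ± 0.26 (SE), adjusted p = 0.000808), a call that held in all 32 fits without 1 library, with 0.69 as the lowest estimate.

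The level of Slc1a5 ran with adipocyte transcripts in several libraries. The 6 adipocyte markers summed to 937 CPM in RL7_M 4, to 248 and 229 in RL7_L 2 and RL7_L 5, to 212 in RL14_M 6 and to 170 in AMB_W 4, and each of these was the highest or next to highest of its group for Slc1a5. RL14_ML 3 had a sum of 166 CPM with 4.52 CPM of Slc1a5. Adipoq, the adipocyte hormone adiponectin, was 72.4 CPM in RL7_M 4 against a median of 3.12 over the 52 libraries. The sum was 77.3 to 170.4 CPM in AMB_W, 85.1 to 112 in HU_W, 80.2 to 116 in HU_M, 90.00 to 155 in HU_L and 74.9 to 153 in HU_ML. At 7 d it was 104 to 114 CPM in RL7_W, 71.8 to 937 in RL7_M, 85.3 to 248 in RL7_L and 80.5 to 143 in RL7_ML. At 14 d it was 59.3 to 121 CPM in RL14_W, 95.3 to 212 in RL14_M, 106 to 117 in RL14_L and 89.6 to 166 in RL14_ML. Lep was at 0 in 3 libraries and Cidec in 1, and the other 4 markers were detected in all. RL14_ML 1 held 27 CPM of Slc1a5 with a marker sum of 91.3 CPM, below the median of the 52 libraries. With the 5.8S level as a covariate the averaged rise of Slc1a5 was 0.28 (adjusted p = 0.867). The part of adipocyte RNA in the Slc1a5 result was not tested. At 14 d Slc1a5 fell from RL7_M to RL14_M (log2 fold change -1.83 ± 0.52 (SE), adjusted p = 0.021), with -0.42 and an adjusted p of 0.594 without RL7_M 4. The call was also lost without RL14_M 1 or RL14_M 2, in voom, at -0.75 (adjusted p = 0.118), with the 5.8S covariate, at -0.54 (adjusted p = 0.999), with the replicate block (adjusted p = 0.0735), without a filter on low counts (adjusted p = 0.0509) and with only the groups compared (adjusted p = 0.178).

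Of the lysosomal pair, Slc36a1 (PAT1, chr11:55204350-55236330, plus strand, ENSMUSG00000020261) was lower in unloaded muscle than after 7 d of reloading. AMB_W held 6.76, 6.21, 6.11 and 5.36 CPM. The unloaded libraries held 5.62, 3.74, 4.98 and 5.89 CPM on water, 4.04, 4.73, 6.25 and 4.57 CPM on metformin, 4.50, 4.31, 5.46 and 5.02 CPM on leucine and 6.32, 4.86, 7.00 and 5.48 CPM on both. After 7 d they held 6.60, 8.07, 6.11 and 5.60 CPM on water, 7.77, 7.13, 6.66 and 8.58 CPM on metformin, 5.38, 5.98, 5.62 and 8.96 CPM on leucine and 5.81, 9.01, 7.98 and 6.28 CPM on both. Of the 16 unloaded libraries 9 lay below all 7 d libraries, and 7 of the 16 at 7 d lay above all unloaded ones. Slc36a1 rose over all drinks (log2 fold change 0.43 ± 0.11 (SE), adjusted p = 0.000631) and on metformin alone (log2 fold change 0.62 ± 0.21 (SE), adjusted p = 0.023), the latter call being lost without HU_M 1, HU_M 4 or RL7_M 4 (adjusted p up to 0.0948). On metformin the rise was 0.19 (adjusted p = 0.878) with the 5.8S covariate and 0.61 (adjusted p = 0.068) without the Alb libraries. The averaged rise was lost without the Alb libraries, at 0.29 (adjusted p = 0.0714), and with the 5.8S covariate, at 0.11 (adjusted p = 0.87). At 14 d the libraries held 4.61, 5.16, 4.49 and 4.35 CPM on metformin. The change from RL7_M was -0.69 ± 0.21 (adjusted p = 0.0274). This call was lost in 5 of 8 fits without 1 library (RL7_M 1 or 4, or RL14_M 1, 5 or 6). The change was -0.17 (adjusted p = 0.999) with the 5.8S covariate, -0.65 (adjusted p = 0.0638) with the replicate block and -0.68 (adjusted p = 0.0764) without the Alb libraries. From RL7_M to RL14_M 2 of 10 transporters fell, where 6.2% of all genes fell.

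Slc38a9 (SNAT9, chr13:112660751-112738749, plus strand, ENSMUSG00000047789) had a narrow range, at 11.5 to 18.7 CPM in the 52 libraries. Its median was 15.1 CPM in AMB_W, 15.01 in the 16 unloaded libraries (12.5 to 18.7), 13.6 at 7 d (11.5 to 16.3) and 14.1 at 14 d (12.8 to 15.9). These ranges overlapped at every time. The change with unloading was 0.01 on the log2 scale (95% interval -0.16 to 0.18). Over all drinks it fell by a small amount from unloading to 7 d (log2 fold change -0.16 ± 0.05 (SE), adjusted p = 0.0112). This call was lost without a filter on low counts and with the 5.8S covariate. It was also lost without the Alb libraries, at -0.10 (adjusted p = 0.244).

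**Figure D4:**
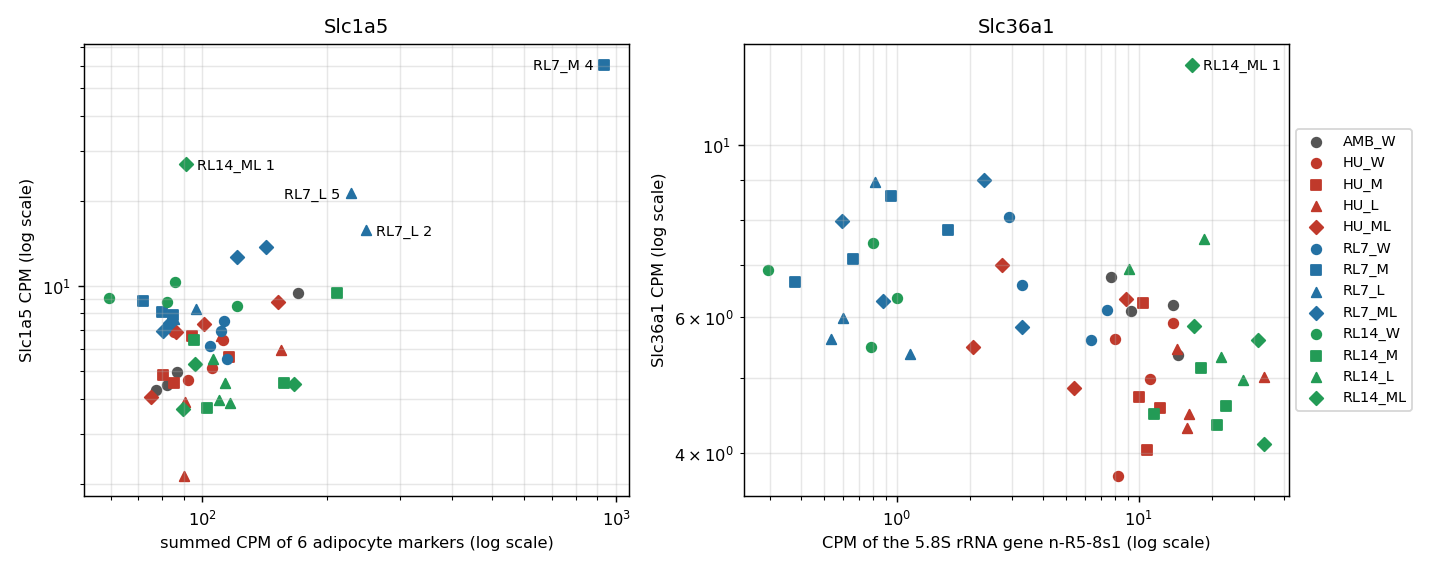
Left, Slc1a5 against the sum of 6 adipocyte markers; right, Slc36a1 against the 5.8S gene n-R5-8s1; all axes are CPM on log scales, each point is 1 of 52 libraries, colour gives the time and shape the drink. RL7_M 4 (60.6 CPM of Slc1a5) lies at the upper right of the left panel, RL14_ML 1 is high for both transporters without a high marker sum, and the 7 d libraries lie at low 5.8S levels.

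Counted over the list, the averaged comparison of 7 d of reloading with unloading had 2 transporters that rose (Slc1a5 and Slc36a1) and 3 that fell (Slc38a2, Slc7a8 and Slc38a9). With 52.7% of all genes changed in that comparison (29.2% rose and 23.5% fell), 5 of 10 is near the background share. On metformin 2 rose and 2 fell (29.6% of all genes changed), on leucine 1 rose and 2 fell (28.6%), and on both 0 rose and 2 fell (5.91%). The median log2 fold change of the 10 genes was -0.12, beside 0.05 for all genes. From 7 d to 14 d over all drinks 0 of 10 passed in edgeR (2 at unadjusted p under 0.05; 13.5% of all genes changed), with Slc1a5 nearest at -0.73 ± 0.26 (adjusted p = 0.0517). DESeq2 called 1 and voom 2 there, where they called 2766 and 4747 of all genes. From RL7_L to RL14_L and from RL7_ML to RL14_ML 0 of 10 passed in edgeR, where 1.33% and 1.88% of all genes changed (1 and 1 at unadjusted p under 0.05). Voom called 1 in each of these and DESeq2 1 and 0. Of all genes voom called 879 and 3885 there and DESeq2 654 and 515.

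**Figure D5:**
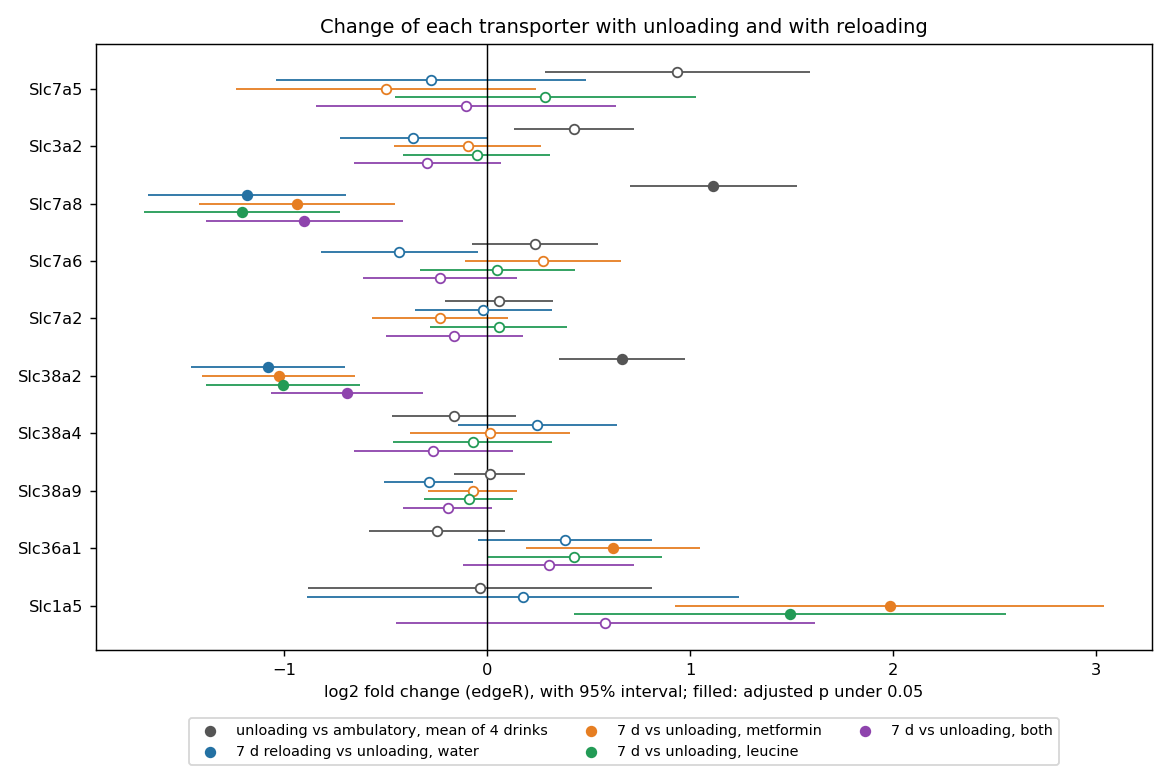
Log2 fold changes with 95% intervals for the 10 transporters, for the mean of the 4 unloaded groups against AMB_W (grey) and for 7 d of reloading against unloading in each drink (colours); filled points have an adjusted p under 0.05. Slc38a2 and Slc7a8 lie right of 0 with unloading and left of 0 with reloading in all 4 drinks.

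The drinks were compared with water to ask what metformin, leucine or both do to the transporters at each time. In unloaded muscle 0 of 10 passed in edgeR for metformin, leucine or both (1, 0 and 1 at unadjusted p under 0.05; 0%, 0.006% and 0.048% of all genes changed), nor in DESeq2 or voom. For Slc38a2 the 95% interval of the log2 difference from HU_W was -0.34 to 0.41 on metformin, -0.34 to 0.41 on leucine and -0.57 to 0.18 on both. For Slc7a8 the intervals were -0.44 to 0.51, -0.19 to 0.76 and -0.67 to 0.28. At 7 d 0 of 10 passed in edgeR (2, 1 and 1 at unadjusted p under 0.05, where 0.138%, 0.078% and 0.006% of all genes changed). DESeq2 called 0 of the 10, and voom called Slc7a6 on metformin and on both and 0 on leucine. Of all genes voom called 444, 144 and 638 there, and DESeq2 72, 40 and 20. At 14 d 1 of 10 passed on metformin and 0 on leucine and on both (2 and 2 at unadjusted p under 0.05; 0.294% and 0.714% of all genes changed). DESeq2 called 0 and 1 in the latter comparisons and voom 1 and 2. Of all genes DESeq2 called 187 and 208 there and voom 1345 and 3021. Slc38a2 was lower than RL14_W on metformin (-0.59 ± 0.19 (adjusted p = 0.0512)) and on both (-0.64 ± 0.19 (adjusted p = 0.0966)) without passing, and DESeq2 gave -0.56 (adjusted p = 0.0379) and -0.64 (adjusted p = 0.0493). On metformin DESeq2 called 1328 of all genes. Those 2 groups, RL14_M and RL14_ML, overlapped RL14_W in Slc38a2.

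The 14 d combination group was also compared with water without RL14_ML 1. With that library alone left out, 2 transporters fell and 0 rose in RL14_ML against RL14_W. Over the 8 fits of this comparison without 1 library, 29 to 2500 genes of all those tested were called, against 119 in the main fit. These 2 calls are not read as a result about the transporters. In the fit without both RL14_ML 1 and RL7_M 4, Slc38a2 in RL14_ML against RL14_W was -0.96 (adjusted p = 6.69e-05), Slc7a6 -0.55 (adjusted p = 0.00956) and Slc3a2 -0.45 (adjusted p = 0.0314), and Slc1a5 turned from 0.15 ± 0.51 (adjusted p = 0.95) to -1.02 (adjusted p = 0.0308). That fit called 2814 genes in this comparison. The 5.8S level was 0.294 to 0.998 CPM in RL14_W and 16.6 to 33 CPM in RL14_ML. In the fit of all libraries with this level as a covariate, 0 genes were called there. The mitochondrial share of counts was 8.31 to 11.7% in RL14_W and 11.4 to 29.2% in RL14_ML. A drink effect and whatever set the 5.8S levels apart cannot be told apart in these 2 groups. The combination against metformin alone and against leucine alone had 0 transporters past the threshold in edgeR at each time, where 0.15% and 0.096% of all genes changed during unloading, 0% and 0% at 7 d, and 0.024% and 0% at 14 d. At an unadjusted p under 0.05 there were 1, 1, 1, 0, 3 and 2 in that order, and voom called 1 (Slc7a6 in HU_ML against HU_M, 0.59 (adjusted p = 0.0342)) and DESeq2 0. Of all genes voom called 124 in HU_ML against HU_M. Averaged over times, 0 of 10 passed for metformin, leucine or both (0, 1 and 0 at unadjusted p under 0.05; 0.048%, 0.072% and 0.036% of all genes), nor in DESeq2 or voom. The intervals of these averages were narrow for Slc38a9 (-0.14 to 0.11 on metformin) and wide for Slc1a5 (-0.27 to 0.94). In the joint test of 6 drink by time terms 0 of 10 passed in edgeR (4 at unadjusted p under 0.05; 0.93% of all genes), with Slc7a6 lowest at an adjusted p of 0.116 and Slc38a4 next at 0.158, and voom called 3. Slc38a2 and Slc7a8 had adjusted p-values of 0.302 and 0.861.

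Across the 52 libraries the levels of Slc38a2 and Slc7a8 were the most alike pair among the 10 (Pearson r of log2 CPM 0.843). Within groups, after removal of group means, r was 0.578. The light chain Slc7a8 and the heavy chain Slc3a2 had r of 0.613, while Slc7a5 and Slc3a2 had 0.553. Slc36a1 and Slc1a5 had r of 0.602, which was 0.483 without RL7_M 4 and RL14_ML 1. Slc38a2 and Slc38a4 were less alike over all libraries (0.352) than within groups (0.569). These correlations describe libraries that share group, depth and RNA quality and carry no test. Of 10403 genes whose mean log2 CPM was 1 or more, those most like Slc38a2 were Npc1 (0.915), Ppp1r3c (0.896) and Tsc22d3 (0.894). Those most like Slc7a8 were Wbp1l (0.936), Plin4 (0.893) and Nfil3 (0.892). For Slc1a5 they were Fasn (0.870), Trarg1 (0.867) and Slit3 (0.862), and for Slc36a1 Tex264 (0.808), Tysnd1 (0.801) and Gna12 (0.798). Slc7a6 was nearest to Ipo13 (0.804), Ksr1 (0.777) and Dnajb5 (0.758), and Slc38a4 to Serpinb6a (0.735), Neto2 (0.719) and Crot (0.715). Slc3a2 was nearest to Klf13 (0.712), Kcnf1 (0.710) and Hip1 (0.698), and Slc7a5 to Fosl2 (0.705), Pfkfb4 (0.686) and Zdhhc18 (0.670). The 2 genes with the least group structure had the weakest likenesses, Slc38a9 to Cplane1 (0.521), Fibin (0.504) and Acap2 (0.504) and Slc7a2 to S100pbp (0.438), Rsad1 (0.425) and Ankzf1 (0.403).

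A list of 33 other amino acid transporters, of which 24 were tested, gave the surroundings. With unloading on water 1 rose and 0 fell, where 1.95% of all genes rose, namely Slc7a1 (6.19 ± 1.01 against 3.46 ± 0.839 CPM, SD, n = 4 each; log2 0.84 ± 0.22, adjusted p = 0.0201). Slc7a1 encodes CAT1, the widely expressed cationic amino acid carrier. It also rose over all unloaded groups (log2 0.74 ± 0.18, adjusted p = 0.00617), again 1 of 24, where 3.31% of all genes rose. From unloading to 7 d of reloading over all drinks 7 rose and 3 fell, against 52.7% of all genes. Slc38a10 rose (log2 0.55 ± 0.09, adjusted p = 2.46e-06), and so did the light chain Slc7a7 (log2 0.94 ± 0.25, adjusted p = 0.00188). Slc15a4, a lysosomal carrier of histidine and small peptides, fell (log2 -0.75 ± 0.13, adjusted p = 8e-06), and so did the glutamate carrier Slc1a1 (log2 -0.44 ± 0.12, adjusted p = 0.00178). In the added comparison of 14 d with unloading 2 rose and 2 fell, where 10.5% of all genes fell, and Slc15a4 was again lower (log2 -0.87 ± 0.15, adjusted p = 3.2e-05). On metformin against water at 14 d 1 of 24 fell, where 3.58% of all genes fell, the glycine carrier Slc6a9 (2.57 ± 1.09 against 5.48 ± 1.36 CPM; log2 -1.10 ± 0.31, adjusted p = 0.0295). With the 5.8S covariate 0 genes were called in that 14 d comparison of metformin with water. The median of the 24 was 0.10 with unloading on water and 0.16 for the averaged 7 d comparison, beside -0.01 and 0.05 for all genes.

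A list of 16 genes of the amino acid response, all tested, includes regulators and targets of ATF4, the transcription factor made when amino acids are short. The genes named from it were chosen after their values were seen. With unloading on water 3 rose and 0 fell, against 2.78% of all genes. Ddit4, an inhibitor of mTORC1, was 62.6 ± 26.8 CPM in HU_W against 2.02 ± 0.711 CPM in AMB_W (log2 4.96 ± 0.52, adjusted p = 2.06e-08). Eif4ebp1, a repressor of translation, rose as well (log2 0.87 ± 0.21, adjusted p = 0.00964), and so did the transcription factor Cebpb (log2 0.96 ± 0.27, adjusted p = 0.034). From HU_W to RL7_W 3 fell and 0 rose, where 2.9% of all genes fell, namely Ddit4 (log2 -4.49 ± 0.50, adjusted p = 8.97e-08), Cebpb (log2 -1.08 ± 0.27, adjusted p = 0.0102) and Atf4 (log2 -0.46 ± 0.13, adjusted p = 0.0258). Over all drinks 9 rose and 5 fell from unloading to 7 d, where 52.7% of all genes changed, so the list as a whole did not move in 1 direction. At 14 d on metformin against water 2 fell, where 3.58% of all genes fell, Atf4 (40.4 ± 5.49 against 62.6 ± 5.47 CPM; log2 -0.63 ± 0.13, adjusted p = 0.00584) and Eif4ebp1 (log2 -0.82 ± 0.20, adjusted p = 0.0202). With the 5.8S covariate 0 genes were called in this 14 d comparison of metformin with water. The list's median log2 fold change was 0.02 with unloading on water, beside -0.01 for all genes.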

How the data were processed

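Total RNA from gastrocnemius of 52 mouse samples was sequenced after ribosomal RNA removal with a stranded kit, per the labels' protocols. The deposited table holds raw counts per gene as whole numbers, and the submitters' processing notes name GRCm38, STAR 2.7.3a, featureCounts 1.6.3 and DESeq2 1.30.0. For the strand setting and annotation release, nothing was given in the sources used here. The table held 0 columns that belonged to no sample of the series. Symbols and positions came from GENCODE vM21 by identifier, of which 55227 of 55487 matched. The libraries totalled 15605044 to 32492548 counts, and the precision of a test is set by the spread between libraries.

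Genes passing filterByExpr (minimum count 10) were fitted with edgeR 4.0.16 in R 4.3.3, by 1 robust quasi-likelihood model of 13 group means over 52 libraries with TMM scaling and 39 residual degrees of freedom. The Benjamini-Hochberg adjustment covered all 16668 genes tested. In all 40 comparisons and a joint test of 6 drink by time terms were made. The comparisons of the metformin, leucine and combination groups at 14 d with unloading on the same drink, and their average, were chosen after seeing the data. The 10 genes and the gene lists were chosen with earlier results of these data known. Named were the 10 transporters, up to 4 other amino acid transporters with the smallest p in a comparison, and for each transporter the 3 genes most alike by Pearson r of log2 CPM (prior count 2). One further red cell marker is not reported here.

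Alternatives were size factors of the RLE kind, testing without the count filter, DESeq2 1.42.0, limma 3.58.1 voom with quality weights, only the groups compared, a replicate block, the 5.8S level as a covariate, and fits without the Alb libraries, without RL14_ML 1 and 6, and without each library in turn. A fit without RL7_M 4 and RL14_ML 1 was added after seeing the data. Of 78 pairs of libraries within groups none held identical counts.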

Additional observations from a re-analysis of the deposited data

Results flagged for a closer look

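In groups of 4 libraries, a library was singled out where its gap to the nearest of the other 3 over the group's range exceeded Dixon's critical value, which chance gives in about 1 of 20 groups. Of the 130 combinations of transporter and group 7 met this, where 6.5 would be met by chance at that rate. Slc1a5 was 60.6 CPM in RL7_M 4 (others 7.89 to 8.88), 27 CPM in RL14_ML 1 (others 3.66 to 5.30) and 9.41 CPM in AMB_W 4 (others 4.31 to 4.96). Slc7a5 was 4.16 CPM in RL14_ML 1 (others 0.753 to 1.018). Slc36a1 was 8.96 CPM in RL7_L 5 (others 5.38 to 5.98), and Slc38a4 was 103 CPM in RL7_W 3 (others 73.0 to 75.9). The single low value was Slc38a2 in RL7_M 4, at 71.8 CPM (others 107 to 111). RL7_M 4 and RL14_ML 1 were each singled out for 2 transporters.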

How the results depend on the processing

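The averaged calls of Slc38a2 and Slc7a8 with unloading and with 7 d of reloading kept their direction and passed in the 9 other settings and in each fit without 1 library. Counts of transporters that changed moved as follows. Without a filter on low counts they were 0 for RL14_M against RL14_W (1 in the main fit), 0 for HU_ML against AMB_W (1), 1 for RL7_ML against HU_ML (2), 1 for RL14_M against RL7_M (2) and 1 for RL14_ML against HU_ML (2). Without the Alb libraries they were 0 for HU_W against AMB_W, RL14_W against HU_W, RL14_M against RL14_W, HU_ML against AMB_W, RL7_ML against HU_ML, RL14_L against HU_L and RL14_ML against HU_ML, 1 for RL7_W against HU_W, RL7_M against RL7_W, HU_L against AMB_W, RL7_L against HU_L and RL14_M against RL7_M, and 3 for the averaged 7 d comparison. With the 5.8S covariate they were 0 for RL14_W against HU_W, RL14_M against RL14_W, HU_ML against AMB_W, RL7_M against HU_M, RL7_L against HU_L, RL14_M against RL7_M and RL14_ML against HU_ML, 1 for RL7_ML against HU_ML and 2 for the averaged 7 d comparison. Other settings mostly added calls. Without RL14_ML 1 and 6 they were 1 for RL14_W against AMB_W, RL7_M against RL7_W, RL14_L and RL14_ML against RL14_W and RL14_L against RL7_L, 2 for RL14_W against RL7_W, RL14_M against RL14_W, HU_ML against AMB_W and the interaction, 3 for 14 d against 7 d averaged, 4 for unloading averaged and 5 for the added average. Without RL7_M 4 and RL14_ML 1 they were 1 for RL14_W against AMB_W, HU_ML against HU_M and RL14_L against RL7_L, 2 for RL14_W against HU_W and against RL7_W, RL14_M and RL14_L against RL14_W and RL14_ML against RL7_ML, 3 for HU_ML against AMB_W and for 14 d against 7 d averaged, 4 for RL14_ML against RL14_W and against HU_ML, HU_M against AMB_W, unloading averaged and the interaction, and 5 for the added average. In voom they were 1 for RL14_W against AMB_W, RL7_M and RL7_ML against RL7_W, RL14_L against RL14_W and against RL7_L, HU_ML against HU_M and RL14_ML against RL7_ML, 2 for RL14_W against RL7_W, RL14_ML against RL14_W and 14 d against 7 d averaged, 3 for RL14_M against RL14_W and the interaction, 4 for HU_M and HU_ML against AMB_W and unloading averaged, and 5 for RL7_W and RL14_W against HU_W and the added average. In DESeq2 they were 1 for RL14_ML against RL14_W, RL14_L against RL7_L and 14 d against 7 d averaged, 2 for RL14_M against RL14_W and 4 for unloading averaged. With only the groups compared they were 0 for RL14_ML against HU_ML, 1 for RL7_W and RL14_W against AMB_W, RL14_L against RL14_W and RL14_M against RL7_M, 2 for RL14_W against RL7_W, and 4 for HU_W and HU_M against AMB_W and RL14_W against HU_W. All-gene counts rose in these settings too. In voom they were 2743 for RL7_W against HU_W (813 in the main fit), 4467 for RL14_W against HU_W (1620) and 4231 for the added average (3623). Without RL7_M 4 and RL14_ML 1 they were 2814 for RL14_ML against RL14_W (119) and 1641 for unloading averaged (1014). The added calls are therefore not read as results about the transporters. The cause of these moves was not tested. Slc1a5 in RL14_ML against RL14_W reversed from 0.15 to -1.02 without RL7_M 4 and RL14_ML 1.

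Fits without 1 library gave 1 to 2 transporters for HU_W and HU_L against AMB_W, 2 to 3 for HU_M, 0 to 2 for HU_ML, 2 for unloading averaged, 2 for RL7_W against HU_W, 0 to 1 for RL14_W against HU_W, 2 to 4, 2 to 3 and 0 to 2 for 7 d against unloading on metformin, leucine and both, and 5 to 6 for its average. They gave 2 to 3, 2 and 1 to 4 for 14 d against unloading on metformin, leucine and both, 2 to 5 for its average, 0 to 3 for 14 d against 7 d averaged, 0 to 2 for RL14_M against RL7_M, RL14_ML against RL14_W and the interaction, 0 to 1 for RL14_M against RL14_W, and 0 for the others. Label numbers showed little pairing of the libraries. Over 219 pairs with the same number in different groups the median correlation of deviations from group means was 0.018 (84 above 0.1). Over 1029 pairs with different numbers in different groups it was -0.009 (357 above 0.1). The replicate block took RL14_M against RL7_M from 2 to 0 transporters and moved no other count by more than 1.5 times. All-gene counts moved as well: HU_W against AMB_W went from 464 to 123 without the Alb libraries and 1362 in voom, RL14_M against RL14_W from 853 to 195 without a filter, 0 with the 5.8S covariate and 3896 in voom, RL7_W against HU_W from 813 to 248 without the Alb libraries and 2743 in voom, and the averaged 7 d comparison from 8788 to 414 with the 5.8S covariate. Low counts limit Slc7a5 most, at a median of 29.5 per library.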
